A study of Canis lupus familiaris with 18 samples.

Results

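The genes of osteoclast acid secretion were followed in 18 canine primary osteosarcomas. The 10 genes, of 15115 with a symbol of their own on the array, were OSTM1, CLCN7, TCIRG1, ATP6V0D2, ATP6V0D1, ATP6V1A, ATP6V1B2, ATP6V1C1, ATP6AP1 and CA2. Every probe set that the platform annotation assigns to exactly 1 of these symbols was taken, which gave 23 of the 42924 probe sets other than controls. Of these, 22 lay among the 25754 probe sets that passed a filter on dim values, and the other was a dim probe set of ATP6V0D2 with a mean of 4.75. The genes were chosen by their symbols with results of the same tumours known, and OSTM1 was selected on its lower signal with increased serum ALP, described below. That difference is therefore given as a description, with no test.

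Osteosarcoma is a malignant tumour of bone whose cells deposit bone matrix. Of the dogs, 9 had a normal and 9 an increased serum concentration of alkaline phosphatase (ALP), which reaches the blood chiefly from liver and bone. The labels give no age, sex, breed or treatment, and no reference tissue was part of the study. Each tumour was a bulk, snap-frozen piece on 1 single-colour Affymetrix array. Fewer osteoclasts, less RNA per osteoclast and less RNA from other cells therefore cannot be told apart in any value below. Values are log2(signal + 16), and a difference is increased minus normal ALP on that scale, where the changes of dim probe sets come out too small. Probes bind with different strength, so levels are compared between tumours and never between genes.

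Osteoclasts are multinucleated cells of the monocyte lineage that dissolve bone by pumping acid onto its surface. Carbonic anhydrase II, from CA2, supplies protons, and a vacuolar H+-ATPase in the ruffled border membrane pumps them out. The chloride-proton exchanger made by CLCN7, with its partner protein OSTM1, carries the balancing charge. The pump has a cytosolic part that splits ATP and a membrane part that moves protons, and some subunits exist in a form common to most cells and another form made in few. In humans, loss of TCIRG1, CLCN7, OSTM1 or CA2 function causes osteopetrosis, in which bone is not resorbed.

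Osteoclast identity genes outside the acid machinery were measured first, as a scale on which the tumours could be placed. Of 9 such genes listed, 5 were measured above the filter, namely ACP5, CTSK, TNFRSF11A, ITGB3 and SIGLEC15. ACP5, the tartrate-resistant acid phosphatase that defines osteoclasts in histology, spanned 144-fold between tumours and correlated at r = 0.97 with the mean of the 5 genes, called the osteoclast score. CTSK, the collagen-cleaving cathepsin K, followed it at 0.88, SIGLEC15 at 0.85 and ITGB3, the beta chain of the osteoclast vitronectin receptor, at 0.78. TNFRSF11A, the receptor for RANKL, did not, at r = -0.02, but it was dim, with a mean of 6.32, and spanned only 1.45-fold. Each of these genes is part of the score, so these r values are partly fixed in advance. That holds most for ACP5, whose wide range weighs most in the mean. NFATC1 and CALCR, listed but below the filter with means of 6.04 and 5.30, gave r = -0.44 and -0.03 with the score. A macrophage score over 10 of 12 listed genes correlated with the osteoclast score at -0.27. The groups differed little on either scale, with a mean difference of -0.16 in the osteoclast score and 0.12 in the macrophage score.

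Across the tumours, the acid secretion genes rose with the osteoclast score, with the exception of ATP6V0D1, which did not pass. At the brightest probe set of each gene, 9 of 10 genes passed the test in limma with the ALP group in the fit and Benjamini-Hochberg adjustment over all probe sets. Over every probe set that passed the filter, 19 of 22 rose and 0 fell, whereas 2.01% of all probe sets rose and 1.5% fell. The probe sets that did not pass were both of ATP6V0D1 and the dimmer one of OSTM1. At the brightest probe set of each of the 10 genes, the median Pearson r with the score was 0.87, against 0.0089 over all probe sets tested. The median fold range between the lowest and the highest tumour was 6.25, against 2.58 over all. Among the 9 genes that passed, adjusted p in limma ran from 2.18e-08 for ATP6V0D2 to 0.0189 for CLCN7, and r was positive within each ALP group. The 9 genes also passed with ACP5, the score gene of widest range, left out of the score, where 162 probe sets passed in all.

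**Figure D1:**
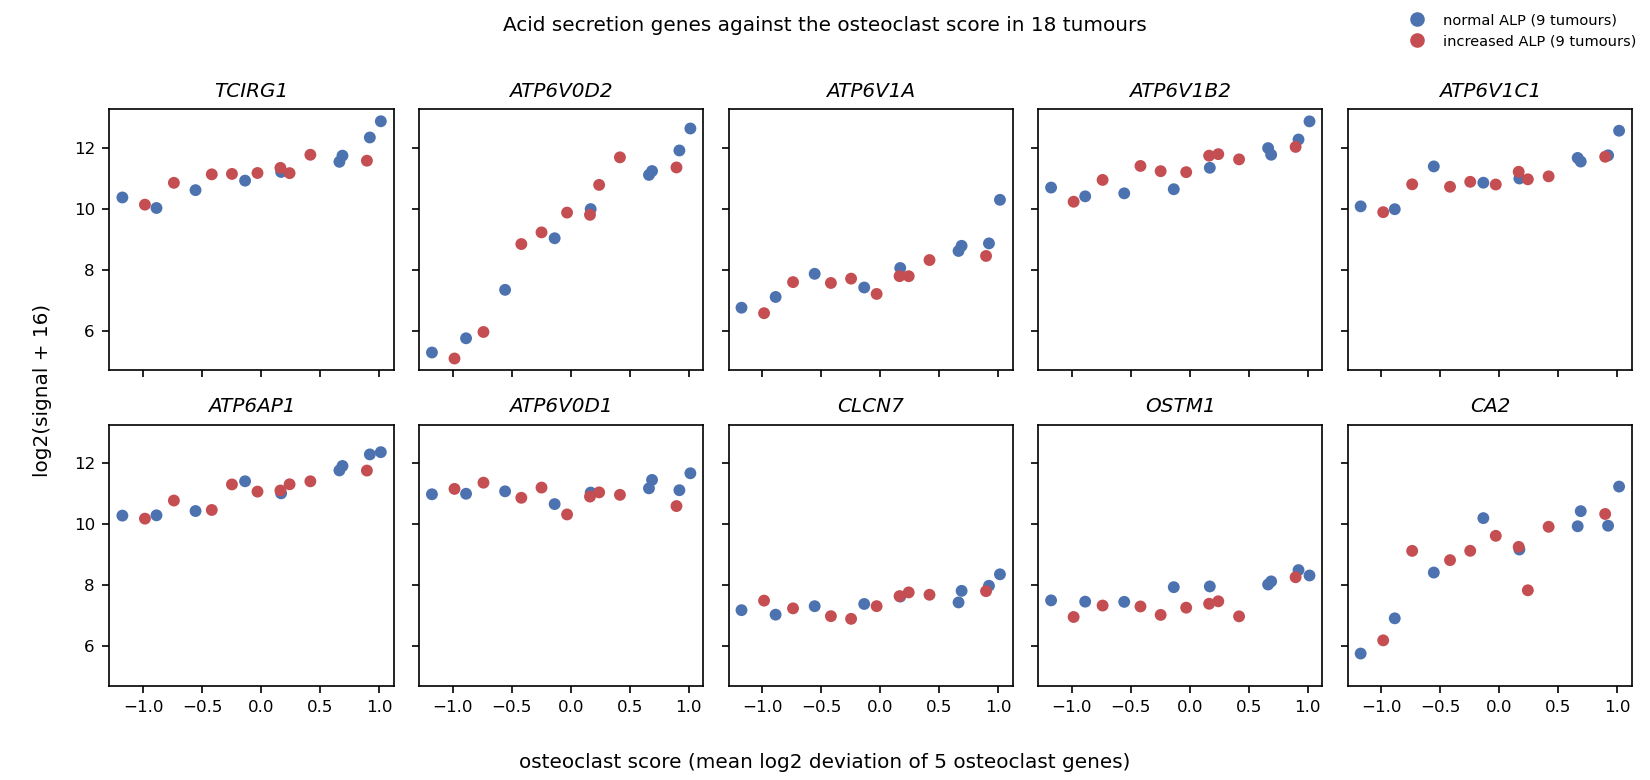
Level of each gene, as log2(signal + 16) at its brightest probe set, against the osteoclast score in 9 tumours with normal ALP (blue) and 9 with increased ALP (red). ATP6V0D2 climbs from 5.11 to 12.62 while ATP6V0D1 stays between 10.31 and 11.66.

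The osteoclast-type subunits of the pump are TCIRG1, the isoform of the large membrane subunit that the ruffled border uses, and ATP6V0D2, an isoform of the membrane part's d subunit that in mice is needed for osteoclast precursors to fuse. The signal of ATP6V0D2 spanned 183-fold between tumours, and those of its 2 other probe sets above the filter spanned 115-fold and 86.5-fold. With normal ALP its level was lowest at 5.30, with a median of 9.99 and a highest value of 12.62. With increased ALP the corresponding values were 5.11, 9.80 and 11.68. Both groups therefore held tumours near the bottom and near the top of the range. The level rose by 3.40 ± 0.21 (SE) per unit of the osteoclast score, with r = 0.97 over 18 tumours, 0.995 within normal and 0.93 within increased ALP.

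TCIRG1 had a narrower range of 7.13-fold. Its lowest, median and highest levels were 10.02, 11.20 and 12.86 with normal ALP, and 10.13, 11.16 and 11.76 with increased ALP. Only 2 tumours, both with normal ALP, lay above the highest tumour with increased ALP. TCIRG1 rose by 0.94 ± 0.11 (SE) per unit of the score, and gave r = 0.91, with a limma adjusted p of 7.98e-05. The 2 probe sets of TCIRG1 correlated at 0.991 with each other.

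Of the 5 genes for subunits or accessory proteins found in most cells, 4 rose with the osteoclast score and 1 did not pass. ATP6V1A, the catalytic subunit that splits ATP, ranged from 6.77 to 10.29 with normal ALP (median 8.06) and from 6.59 to 8.46 with increased ALP (median 7.72). It spanned 13.0-fold and rose by 1.06 ± 0.15 (SE) per unit of the score, with an adjusted p of 0.000397 in limma. ATP6V1B2, the partner of the catalytic subunit and the isoform osteoclasts use, ranged from 10.41 to 12.85 with normal ALP (median 11.34) and from 10.23 to 12.02 with increased ALP (median 11.40). Its r with the score was 0.91, and both its other probe sets passed as well. The top of each range was a tumour with normal ALP, while the bottoms lay close together.

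ATP6V1C1, a stalk subunit that regulates assembly of the pump, ranged from 9.99 to 12.55 with normal ALP (median 11.38) and from 9.89 to 11.70 with increased ALP (median 10.88). It correlated with the score at r = 0.88, with an adjusted p of 0.000413 in limma. ATP6AP1, an accessory protein of the membrane part, ranged from 10.27 to 12.35 with normal ALP (median 11.40) and from 10.18 to 11.75 with increased ALP (median 11.09). It gave r = 0.94, and each of its 4 probe sets passed. These 4 genes, although used by most cells, thus had r between 0.86 and 0.94 with the osteoclast score, beside 0.91 for TCIRG1. The difference between these r values was not tested.

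ATP6V0D1, the d subunit isoform common to most cells, was the gene that did not pass. Its levels ran from 10.65 to 11.66 with normal ALP (median 11.07) and from 10.31 to 11.35 with increased ALP (median 10.95), a range of 2.54-fold over all tumours. It changed by 0.04 ± 0.11 (SE) per unit of the osteoclast score, and gave r = 0.13, with a limma adjusted p of 0.877. Its dimmer probe set gave r = 0.28 and an adjusted p of 0.603. The log2 ratio of each of the other 9 genes to ATP6V0D1 gave r from 0.56 for OSTM1 to 0.95 for ATP6V0D2 with the score. This restates the values above and is no further test, and the difference in slope between the genes was not tested.

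Within the groups, ATP6V0D1 gave r = 0.62 with normal and -0.55 with increased ALP at its brighter probe set, and 0.68 and -0.11 at its dimmer one. The slopes at the brighter probe set differed by -0.52 ± 0.20 (SE), which did not pass, with an adjusted p of 0.979 in limma. At the dimmer one they differed by -0.47 ± 0.38 (SE). Of all probe sets, 0% passed that test and 4.53% had an unadjusted p under 0.05, as the brighter probe set did at 0.0220 and the dimmer did not at 0.225.

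In the chloride path, CLCN7 and OSTM1 rose less steeply. CLCN7 ranged from 7.04 to 8.36 with normal ALP (median 7.44) and from 6.90 to 7.81 with increased ALP (median 7.50). It rose by 0.41 ± 0.09 (SE) per unit of the score, and gave r = 0.77, with a limma adjusted p of 0.0189. Without normal ALP replicate 1 the adjusted p was 0.0510, and the slope was 0.39. OSTM1 rose by 0.43 ± 0.09 (SE) at its brighter probe set, and gave r = 0.69, with a limma adjusted p of 0.0131. Within the groups its r was 0.94 with normal and 0.64 with increased ALP. At its dimmer probe set the slope was 0.28 ± 0.10 (SE) and the adjusted p was 0.115, which did not pass.

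CA2, the source of protons, spanned 43.9-fold at its brightest probe set. It ranged from 5.77 to 11.22 with normal ALP (median 9.93) and from 6.20 to 10.33 with increased ALP (median 9.12). It rose by 1.80 ± 0.29 (SE) per unit of the score, and the limma adjusted p was 0.00183. Its 2 other probe sets passed too. Red blood cells also make carbonic anhydrase II. Of 6 listed genes of red cell precursors, 1 was measured above the filter, so their part in the CA2 values was not tested.

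The tumours kept much the same order from gene to gene. Normal ALP replicate 9 was the highest tumour at 9 of the 10 genes, the exception being OSTM1, which was highest in normal ALP replicate 6. At 6 genes the lowest tumour was increased ALP replicate 7. Among the 3 lowest tumours, normal ALP replicate 1 and increased ALP replicate 7 each appeared at 8 genes and normal ALP replicate 3 at 6. Without ATP6V0D1, the 36 pairs of genes correlated between 0.52 and 0.94, with a median of 0.82. The 6 pump genes other than ATP6V0D1 held the tightest block, with 15 pairs between 0.82 and 0.94. ATP6V0D1 gave 0.05 to 0.50 with the other 9 genes. OSTM1 gave 0.19 to 0.72, highest with ATP6AP1 and lowest with ATP6V0D1. These values describe 18 tumours whose arrays the genes share.

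**Figure D2:**
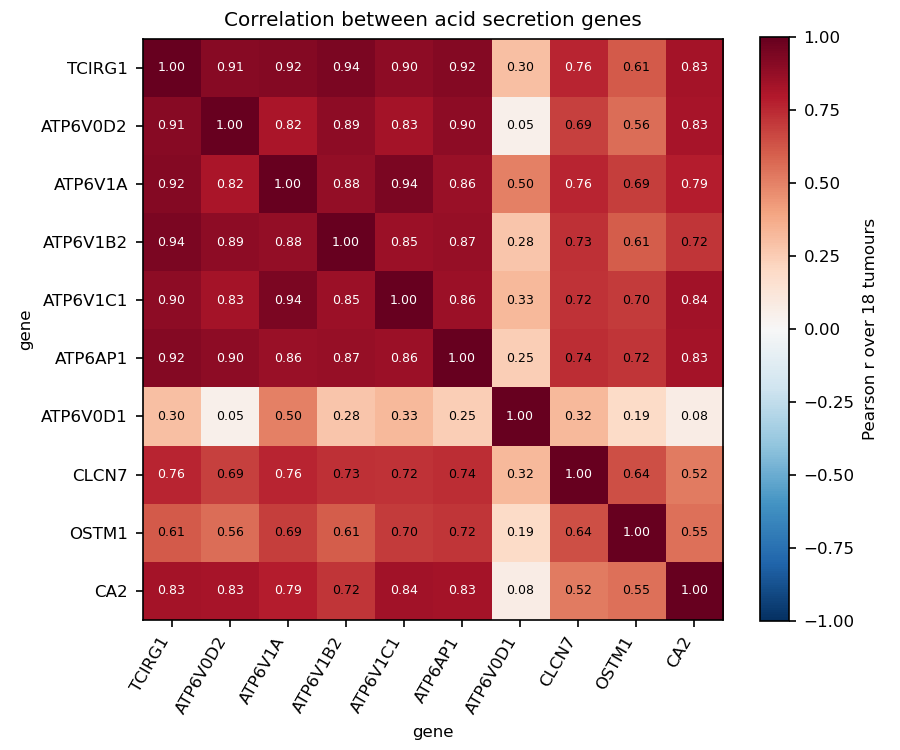
Pearson r between the 10 genes over 18 tumours, each gene at its brightest probe set, on a colour scale from -1 to 1. The row and column of ATP6V0D1 are pale, at 0.05 to 0.50, beside the dark block of the other pump genes.

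Macrophages come from the same lineage and use the same pump to acidify lysosomes, so the genes were also set against the macrophage score. None of the 10 genes passed that test in limma, where 0.82% of all probe sets rose and 0.0583% fell. The largest positive r was that of ATP6V0D1, at 0.56, with a two-sided permutation p of 0.0156 before adjustment over the relations computed. Its adjusted p in limma was 0.273, and r was 0.34 without the 2 tumours farthest from the median score. The other 9 genes had r between -0.23 and 0.11 over all tumours, and between -0.47 and -0.23 without those 2 tumours. Within normal ALP their r lay between -0.03 and 0.46, and within increased ALP between -0.71 and -0.35. This difference between the groups was not tested. With both scores in the fit, the 9 genes still rose with the osteoclast score, with which 656 probe sets passed in all. ATP6V1A also rose with the macrophage score, by 0.43 with an adjusted p of 0.0321 in limma.

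With the osteoclast score, 2.01% of all probe sets rose and 1.5% fell in limma. Of 5 measured osteoblast genes, 3 rose with it, 0 fell and 2 did not pass. Their mean correlated with the osteoclast score at 0.78, and the 3 that rose were DMP1, IBSP and ALPL, at 0.80, 0.76 and 0.72. BGLAP stood at 0.53 and COL1A1 at -0.34. The acid secretion genes correlated with the osteoblast score at -0.06 for ATP6V0D1 to 0.80 for ATP6V0D2, with 0.37 for OSTM1. With the osteoblast score in the same fit, where 69 probe sets passed in all, 7 genes still rose with the osteoclast score. CLCN7 (adjusted p = 0.583) and OSTM1 (adjusted p = 0.0811) no longer passed in limma. The part of bone-forming cells in the results was otherwise not tested.

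The rest of the pump followed in part. Of 18 further V-ATPase genes listed, 13 were measured above the filter. Of these, 7 rose with the osteoclast score, 0 fell and 6 did not pass in limma, where 2.01% of all probe sets rose and 1.5% fell. Their median r was 0.72. The 4 of smallest p were ATP6V0B, ATP6V1D, ATP6V0C and ATP6V1H, with r of 0.90, 0.92, 0.86 and 0.82. ATP6V0B and ATP6V0C make the ring that turns in the membrane, ATP6V1D the central stalk, and ATP6V1H a subunit that controls activity. The other isoforms of the large subunit that TCIRG1 makes were looked at after the values were seen. ATP6V0A1 and ATP6V0A2 gave r = 0.16 and 0.38 and did not pass, and ATP6V0A4, below the filter with a mean of 5.01, gave 0.79. Their difference from TCIRG1 was not tested.

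Among 11 measured partners and regulators of acid secretion, 2 rose with the score and 0 fell, beside the same 2.01% and 1.5% of all probe sets. SNX10, a sorting protein whose loss also causes osteopetrosis in humans, spanned 15.6-fold with r = 0.87 and a limma adjusted p of 0.000206. SLC4A2, the chloride-bicarbonate exchanger that balances proton export on the other side of the cell, gave r = 0.80 and an adjusted p of 0.00697. PLEKHM1, a lysosome trafficking protein, missed the threshold at an adjusted p of 0.0555 in limma. DMXL1, an assembly factor of the pump, gave r = 0.65 and did not pass, and the median r of the 11 genes was 0.32. Of 13 measured lysosome genes, 2 rose and 0 fell. NPC2, which moves cholesterol out of lysosomes, gave r = 0.73, and PSAP, the precursor of the saposins, 0.72. MCOLN1, a lysosomal calcium channel, gave 0.61 and GALNS, a sulfatase, 0.57, and neither passed. The median r of the 13 genes was 0.39.

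**Figure D3:**
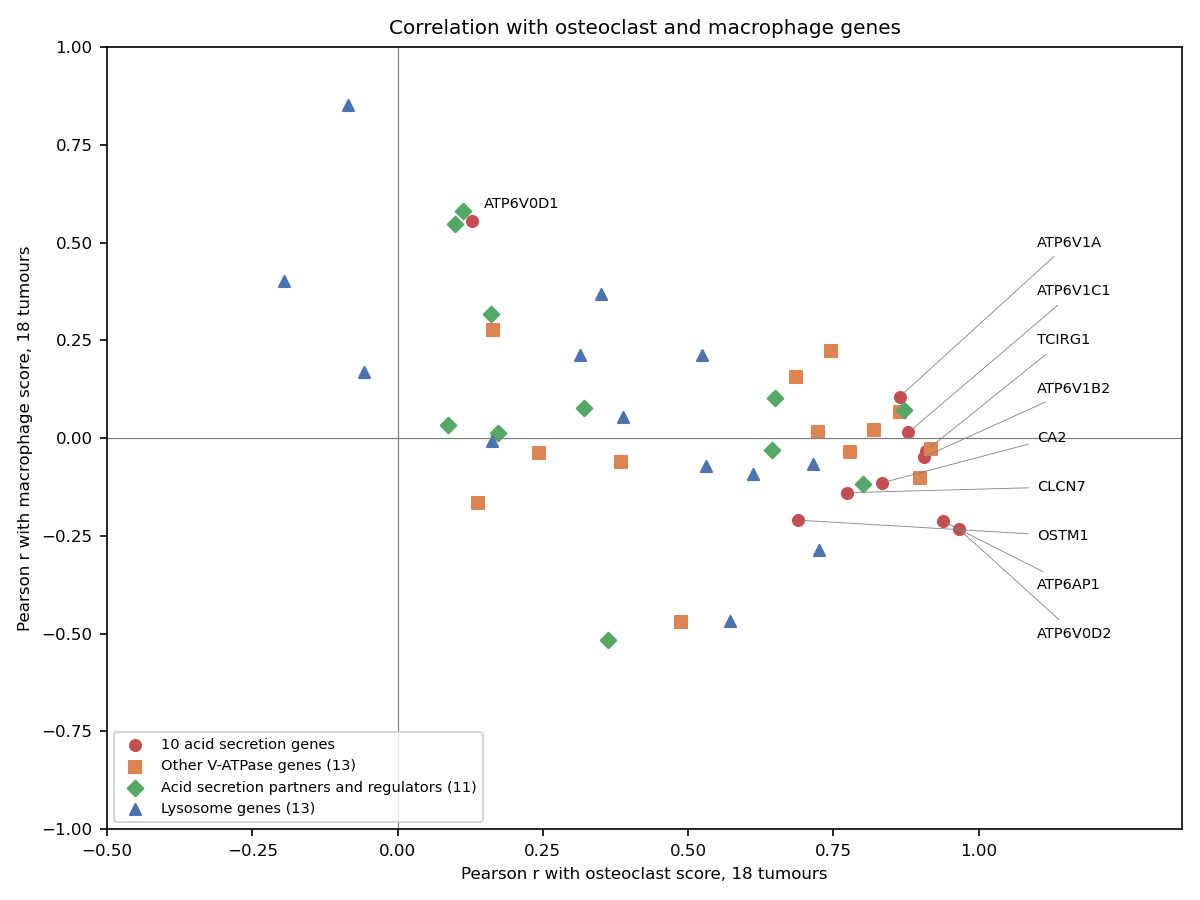
Pearson r of each gene with the osteoclast score (horizontal axis) and with the macrophage score (vertical axis) over 18 tumours, for the 10 acid secretion genes and for measured genes of the pump, its partners and the lysosome. Of the 10 genes, 9 lie to the right at 0.69 to 0.97 and ATP6V0D1 lies to the upper left at 0.13 and 0.56.

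Genes with the most similar pattern over the 18 tumours were looked up among 10716 genes. For ATP6V0D2, the nearest was ACP5 at r = 0.97, followed by CD68, a lysosomal protein of macrophages and osteoclasts, at 0.95, LOC611446 at 0.94 and MMP9, a gelatinase that osteoclasts make, at 0.94. DPP4, PLA2G15, S100A2 and ITGA2 followed at 0.91 to 0.93. For TCIRG1, MATK, a kinase of blood cells, came first at 0.97, then ATP6V1D at 0.96, SLC37A2, a sugar-phosphate transporter of the monocyte lineage, at 0.94, and ATP6V1B2 at 0.94. PLA2G15, ABCB4, ITGA2 and S100A2 followed at 0.93. ATP6V0D2 and TCIRG1 thus shared PLA2G15, ITGA2 and S100A2 among their 8 nearest genes.

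For OSTM1 the nearest gene was BLZF1, a Golgi structural protein, at r = 0.86, followed by the osteoclast score gene ITGB3 at 0.85, ELOVL1, a fatty acid elongase, at 0.82 and ACTG1, a cytoskeletal actin, at 0.81. PEX2, a peroxisome protein, NUS1, which serves dolichol synthesis, LOC485909 and DENND10 followed at 0.79 to 0.80. None of its 8 nearest genes was another of the acid secretion genes. The nearest of those was ATP6AP1, at rank 61, and ATP6V0D2 stood at rank 392. ATP6V0D1 stood at rank 4971 for ATP6V0D2 and at 3105 for OSTM1.

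Between the serum groups, OSTM1 was lower with increased ALP at both its probe sets, and these values chose it. At the brighter probe set its level was 7.46, 7.96 and 8.49 (lowest, median and highest) with normal ALP. With increased ALP it was 6.96, 7.31 and 8.26, and 7 of 9 tumours lay below the lowest tumour with normal ALP. The mean was 7.92 ± 0.38 (SD, n = 9) with normal and 7.34 ± 0.39 (SD, n = 9) with increased ALP. They differed by -0.59 ± 0.18 (SE), a signal ratio of 0.666. Increased ALP replicate 4, at 8.26, was the tumour that kept the groups overlapping over most of the range.

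At the dimmer probe set the lowest, median and highest levels of OSTM1 were 7.25, 7.45 and 8.02 with normal ALP and 6.49, 7.04 and 7.82 with increased ALP. There 8 of 9 tumours with increased ALP lay below the lowest tumour with normal ALP, and the difference was -0.51 ± 0.15 (SE). How many of all probe sets reach such counts is not given here, so the counts only describe a gene chosen on this contrast. The 2 probe sets correlated at 0.905 over the tumours, so they are no independent measurements. The difference at the brighter probe set was -0.52 with the osteoclast score in the fit. With the difference between 3' and middle actin probe sets in the fit, a measure of RNA quality that itself correlated at 0.59 with the ALP group, it was -0.38. It was -0.70 without increased ALP replicate 4, and -0.76 without that tumour and normal ALP replicate 1.

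**Figure D4:**
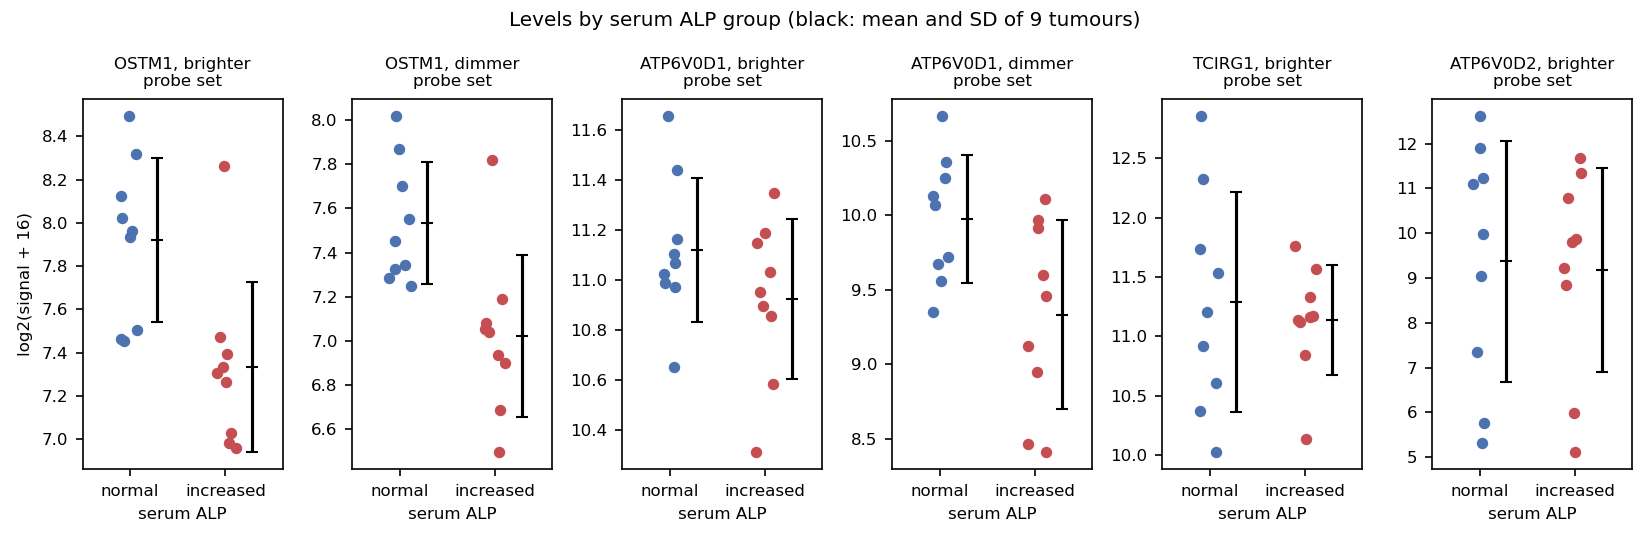
Levels as log2(signal + 16) of OSTM1, ATP6V0D1, TCIRG1 and ATP6V0D2 in single tumours, by serum ALP group, each panel with its own vertical axis and with the mean and SD of 9 tumours in black. In the OSTM1 panels most tumours with increased ALP sit below all those with normal ALP, with replicate 4 at 8.26 in the first panel, and in the TCIRG1 and ATP6V0D2 panels the groups overlap, with 2 tumours with normal ALP above all those with increased ALP.

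The other genes also had lower means with increased ALP, and none passed the test. The mean was lower at 22 of 22 probe sets, where 48.5% of all probe sets were lower. This direction was known when the genes were chosen and is a description, and the 22 probe sets, which rise and fall together, are far from independent. At the brightest probe set of each gene, the median difference was -0.20, against 0.0066 over all probe sets. There 10 of 10 means were lower, but 9 were with scaling to the 75th percentile, 7 with the osteoclast score in the fit, and 6 without normal ALP replicate 9. Apart from OSTM1, adjusted p in limma ran from 0.719 to 0.993, and 0% of all probe sets passed. The groups overlapped at all 22 probe sets, as they did over all probe sets, of which 0% had groups apart. Of the 20 probe sets apart from those of OSTM1, 1 had an unadjusted p under 0.05, the dimmer one of ATP6V0D1, which was lower with increased ALP. Over all probe sets 6.14% did so in either direction and 4.22% on the lower side.

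The osteoclast-type subunits had close means in the groups. TCIRG1 averaged 11.29 ± 0.93 (SD, n = 9) with normal and 11.14 ± 0.46 (SD, n = 9) with increased ALP, and differed by -0.15 ± 0.32 (SE). ATP6V0D2 averaged 9.37 ± 2.68 (SD, n = 9) and 9.18 ± 2.27 (SD, n = 9). It differed by -0.19 ± 1.08 (SE), with a 95% interval from -2.46 to 2.09 that leaves room for large differences either way. The sign of both turned positive without normal ALP replicate 9, at 0.05 for TCIRG1 and 0.22 for ATP6V0D2. With the actin difference in the fit, TCIRG1 differed by -0.27 and ATP6V0D2 by -0.75.

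Among the common subunits, ATP6V0D1 differed most at its dimmer probe set, by -0.64 ± 0.25 (SE). Its levels there were 9.35, 10.07 and 10.67 (lowest, median and highest) with normal ALP and 8.41, 9.46 and 10.11 with increased ALP. There 4 of 9 tumours with increased ALP lay below the lowest with normal ALP. Its brighter probe set gave -0.19 ± 0.15 (SE), and the probe sets correlated at 0.66, so they disagree in part. ATP6V1A differed by -0.53 ± 0.38 (SE) and ATP6V1C1 by -0.31 ± 0.30. ATP6AP1 differed by -0.26 ± 0.30 (SE) at its brightest probe set and by -0.52, -0.57 and -0.52 at the others. ATP6V1B2 differed by -0.03 ± 0.32 (SE) at its brightest probe set and by -0.16 and -0.48 at the others. CLCN7, the partner of OSTM1, differed by -0.14 ± 0.17 (SE), and by -0.0048 with the actin difference in the fit. CA2 differed by -0.20 ± 0.67 (SE), and by -0.76 and -0.23 at its other probe sets. At the brightest probe sets, the differences of these last 6 genes were smaller than the larger SD of their groups.

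**Figure D5:**
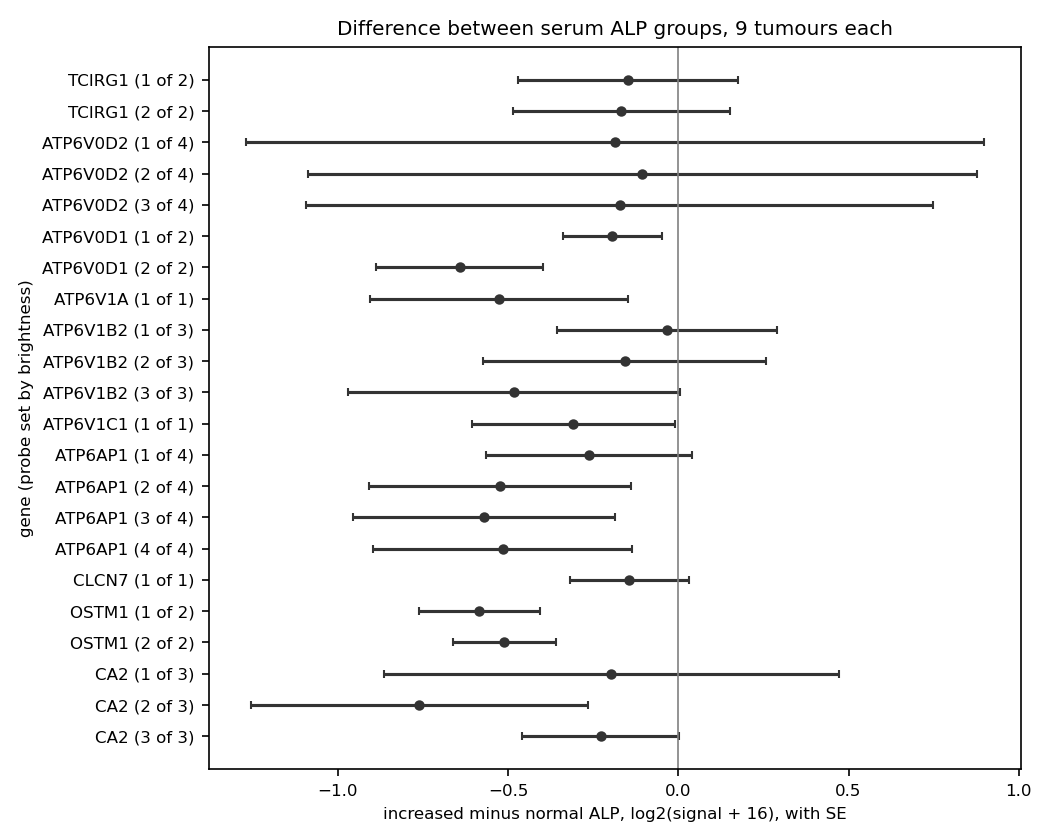
Increased minus normal ALP in log2(signal + 16) at the 22 probe sets above the filter, with the SE (9 tumours in each group). All points lie left of 0, from -0.76 at a CA2 probe set to -0.03 at ATP6V1B2, and the bars of OSTM1 are short beside those of ATP6V0D2.

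In the wider pathway lists 0 genes passed between the groups, and a shift of a whole list was not tested. Of the 13 further V-ATPase genes, 10 had lower and 3 had higher means with increased ALP, with a median of -0.05, where 48.5% of all probe sets were lower. The 4 of smallest p were ATP6V1G2 at 0.21 ± 0.11 (SE), ATP6V0A1 at 0.23 ± 0.15, ATP6V0A2 at -0.24 ± 0.16 and ATP6V1H at -0.33 ± 0.23. Of the 11 partners and regulators, 6 were lower and 5 higher. TFEB, a transcription factor of lysosome genes, stood at 0.17 and DMXL1 at -0.30. Of 13 lysosome genes, 6 were lower and 7 higher, and MCOLN1 had the smallest p at -0.50 ± 0.23 (SE), with an adjusted p of 0.808 in limma. Among the cell type lists, those of neutrophils and fat cells stood higher with increased ALP, by 1.07 and 0.84 in their mean level. No gene of either list passed, the smallest adjusted p in limma being 0.770 and 0.841. The mean levels of these lists gave r = -0.38 and -0.27 with OSTM1, which were not tested. The other cell type lists gave r from -0.42 for red cell precursors, with 1 measured gene, to 0.69 for osteoclasts. The part of any of these lists in the difference of OSTM1 was not tested.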

How the data were processed

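Total RNA of 18 canine primary osteosarcomas had been hybridised to 1 Affymetrix array each. The deposited values are log2 signals, which per the submitters' processing notes came from MAS5, with no version, and the normalization is not given in the sources used here. No detection calls were used and the labels give no batch. Signals were returned to the linear scale, 16 was added and log2 taken. After setting aside 111 control probe sets, the 25754 with a mean above the 40th percentile (6.15) were kept. Genes were named from the platform annotation, and a gene stands by its probe set of highest mean. Sequences and coordinates were not used here, and the RefSeq gene order served to find neighbouring genes.

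The ALP groups, 9 tumours each, were compared with limma 3.58.1 in R 4.3.3 (eBayes with an intensity trend, two-sided, Benjamini-Hochberg over all probe sets, threshold 0.05). A score averages, over its genes, how far a tumour lies from the 18-tumour mean. It was fitted with the ALP group beside it, and its own genes were left out of counts. Pearson and Spearman correlations used 100000 permutations in NumPy 2.4.6, with ranks from SciPy 1.17.1, over 29 relations. The labels number the tissues within each ALP group and do not say what a number stands for. Tumours of equal number showed little likeness (r -0.16 to 0.27). No array was duplicated, the highest correlation between arrays being 0.982. The precision is limited by the number of arrays. The genes, lists and tests were chosen with earlier results of these data known. Named were all 10 genes, up to 4 genes of smallest p per list, and the 8 most alike for OSTM1, TCIRG1 and ATP6V0D2. Genes of the cell type lists are named beside their scores, and the large subunit's other isoforms and the neighbouring genes were named after their values were seen. The fits were tested on simulated data. Alternatives covered the offset, filter, normalization, variance prior, array weights, replicate block, left-out arrays, quality and cell type covariates, score genes and probe sets.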

Additional observations from a re-analysis of the deposited data

Results flagged for a closer look

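OSTM1 at its brighter probe set had 1 tumour far from the others. Increased ALP replicate 4 stood at 8.26, while the nearest tumour with increased ALP was at 7.48, and this gap made up 0.605 of the group's whole range. In all, 44 such group ranges were tested, and chance flags about 1 in 20.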

How the results depend on the processing

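The count of probe sets passing between the ALP groups was 0 under all 35 alternative settings, and the difference of OSTM1 kept its sign, between -0.76 and -0.38. The signs of TCIRG1, ATP6V0D2, ATP6V1B2 and CA2 turned under 1, 7, 9 and 3 settings, with highest values of 0.05, 0.35, 0.15 and 0.14. Leaving out 1 tumour at a time gave 6 to 10 genes lower with increased ALP, 8 to 9 genes rising with the osteoclast score, and 383 to 2275 probe sets passing with the score (903 in all tumours). That last count was 3327 with array weights, 321 without normal ALP replicate 1 and increased ALP replicate 4, 162 without ACP5 in the score, 170 with score genes scaled to their SD, and 69 with the osteoblast score in the fit, the last 3 settings being chosen after seeing the data. With the tissue number as a replicate block, 0 probe sets and 0 of the genes passed with the score, and all 9 slopes stayed positive (ATP6V0D2 3.26, adjusted p 0.0627). The block takes up 8 degrees of freedom, and the part of this in the lost calls was not tested. Between the ALP groups, 0 probe sets passed with the block, as without it. Without normal ALP replicate 1 and increased ALP replicate 4, CLCN7 (adjusted p 0.110) and OSTM1 (0.101) no longer passed in limma. In the macrophage test, 1 gene passed with the osteoclast score in the fit. The cause of these moves was not tested. The number of arrays and unknown background limit every value for dim probe sets.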

Other observations

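The genes that lie beside 2 of the acid secretion genes, by their order in the RefSeq annotation of UU_Cfam_GSD_1.0, were read in the same tumours. Of the 12 nearest protein-coding genes of OSTM1, 6 on each side, 6 were measured above the filter. They correlated with OSTM1 at -0.34 to 0.55, highest for PDSS2, and their differences between the ALP groups lay between -0.13 and 0.06. OSTM1 itself differed by -0.59, but it was chosen on that value, so its distance from its neighbours is no result. Of the 12 neighbours of ATP6V0D2, 6 were measured. CA2 is one of them and correlated with ATP6V0D2 at 0.83, while the others lay between -0.32 and 0.33. Among these was the carbonic anhydrase gene CA3, at 0.30. These values describe 18 tumours and carry no test.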
